A study of Mus musculus with 10 samples.

Results

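The cells described here were Ibsp Alpl cells of the postnatal mouse supraspinatus enthesis, the tissue that anchors a shoulder tendon to bone. A droplet cell taken at postnatal day 11 or 18 (P11 or P18) was counted as one when it held at least 3 unique molecular identifiers (UMIs, counted molecules) of Ibsp, at least 1 of Alpl, and 0 of Ptprc, Cdh5 and Matn1. Ptprc is a leukocyte gene, Cdh5 an endothelial gene and Matn1 a gene of hyaline cartilage. Cells also needed at least 500 detected genes and at most 10% of their counts in mitochondrial genes. This gate held 84 of 2952 kept cells at P11 and 313 of 5396 at P18, in all 397 of 8348. At P56, where 5131 cells were kept, 16 met the same conditions, and the 3 droplet libraries held 13479 kept cells together. Counts of these genes chose the cells, so their contrasts with other droplet cells are given as descriptions with no test.

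The droplet libraries came from whole entheses of wild-type C57BL/6 mice, 1 library each at P11, P18 and P56. Entheses were dissected, pooled and digested with liberase, red cells were lysed, and DAPI-negative, Cd45-negative cells were sorted. A second set of 7 plates of 96 wells came from Gli1CreERT;Ai14 mice, all of which received tamoxifen at P5 and P7, with 1 plate for each of 7 ages: P7, P11 and P14, then P18 and P21, then P28 and P42. In these mice the promoter of Gli1, a Hedgehog target, drives a tamoxifen-dependent Cre that turns on the red reporter of Ai14, so that the labelled lineage is that of cells with Gli1 promoter activity around the doses. Wells were filled by a sort on DAPI and red fluorescence after pooling, and the plates carry the lineage's name in their titles. The protocol's wording does not settle whether red cells were kept or left out, and its list of ages does not name P14, so the wells are called Gli1-lineage after the titles only. No age was replicated in either assay, the labels do not say that libraries came from separate animals, and p-values below measure the spread between plates.

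At a fibrocartilaginous enthesis, tendon passes through unmineralised and then mineralised fibrocartilage before it reaches bone. Mineralisation depends on phosphate: Alpl, tissue-nonspecific alkaline phosphatase, splits pyrophosphate, an inhibitor of mineral growth, and releases phosphate. Ibsp, bone sialoprotein, and Spp1, osteopontin, are acidic phosphoproteins that bind mineral, and Dkk1 is a secreted inhibitor of canonical Wnt signalling. Hedgehog-responsive cells that express Gli1 are known to populate the mineralising fibrocartilage of this attachment.

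Ibsp and Spp1 lie in a cluster of acidic matrix genes on mouse chromosome 5 that also holds Dspp, Dmp1 and Mepe and spans 270.4 kb. In the GRCm38.p6 annotation, Dspp occupies chr5:104170703-104180127, Dmp1 chr5:104197575-104214102, Ibsp chr5:104299287-104311472, Mepe chr5:104325329-104338611 and Spp1 chr5:104435111-104441053. Alpl lies at chr4:137741731-137796384 and Dkk1 at chr19:30545876-30549496, and all 7 are protein-coding. The promoter windows of the Ibsp, Spp1 and Dkk1 genes are shown because these 3 genes were high together in the cells below. Each runs from 250 bases before the annotated start to 50 bases after it, on the gene's strand, in RefSeq sequence of GRCm38.p6. The Ibsp window is chr5:104299037-104299336 on the plus strand, the Spp1 window chr5:104434861-104435160 on the plus strand at the first of its 2 starts, and the Dkk1 window chr19:30549447-30549746 on the minus strand. Capitals mark the RUNX core TGTGGT or its complement ACCACA, and the CCAAT box CCAAT or its complement ATTGG; these 2 motifs share no overlap in the windows shown.
Ibsp promoter: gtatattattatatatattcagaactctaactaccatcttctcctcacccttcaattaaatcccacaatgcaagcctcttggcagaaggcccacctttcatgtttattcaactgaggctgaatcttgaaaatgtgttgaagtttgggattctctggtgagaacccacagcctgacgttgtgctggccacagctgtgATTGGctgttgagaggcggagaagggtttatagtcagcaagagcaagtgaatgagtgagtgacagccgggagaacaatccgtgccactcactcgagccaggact
Spp1 promoter: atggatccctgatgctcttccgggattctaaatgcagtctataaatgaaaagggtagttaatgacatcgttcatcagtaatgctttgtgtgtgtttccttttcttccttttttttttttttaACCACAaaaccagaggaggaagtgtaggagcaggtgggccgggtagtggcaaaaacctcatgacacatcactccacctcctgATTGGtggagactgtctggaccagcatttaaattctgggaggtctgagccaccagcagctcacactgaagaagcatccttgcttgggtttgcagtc
Dkk1 promoter: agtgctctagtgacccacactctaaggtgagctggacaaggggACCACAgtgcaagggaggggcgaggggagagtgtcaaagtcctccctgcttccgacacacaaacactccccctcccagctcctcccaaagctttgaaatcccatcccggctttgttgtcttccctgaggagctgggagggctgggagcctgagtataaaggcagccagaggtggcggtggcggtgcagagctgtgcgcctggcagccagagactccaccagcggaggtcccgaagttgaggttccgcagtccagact
The Ibsp window held 1 CCAAT match and 0 RUNX matches, the Spp1 window 1 of each, and the Dkk1 window 1 RUNX match and 0 CCAAT matches. Neither window of the 2 Alpl starts held a match. Over 32851 windows of the same length, 16.8% held the RUNX letters and 37.4% the CCAAT letters, so each single match is common.

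The droplet libraries held 40082499 to 53725468 counts in 3263 to 5588 barcodes, and the plates 240498 to 507431 counts. Pairs of droplet libraries shared 4, 6 and 9 barcodes, none of them a gate cell in both. Gate cells were deeper than the other kept cells without Ptprc and Cdh5 counts. Median depths were 15367 against 13822 UMIs at P11 and 10466 against 7381 at P18. Gate cells had 5.47% and 2.96% mitochondrial counts at the median. Xist was found in 70 of 84 gate cells at P11 and 120 of 313 at P18, so the mix of sexes, the age and the library cannot be told apart. Where wells or cells were summed, a lower level can mean fewer expressing cells or less RNA per cell, and these cannot be told apart.

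The gate made up 2.85% of kept cells at P11 (exact binomial 95% interval 2.28 to 3.51). Its share was 5.80% in the P18 library (5.19 to 6.46), and 0.312% in that of P56 (0.178 to 0.506). Of cells without Ptprc and Cdh5 counts it was 3.46% of 2431, 11.0% of 2845 and 0.352% of 4551. The second denominator leaves out the cells with Ptprc or Cdh5 counts, which were 521 of 2952 at P11 and 2551 of 5396 at P18 despite the Cd45-negative sort. All intervals given for droplet cells cover counting error only, not the spread between pools of mice. The gate's edge was thinly filled: with all other conditions met, 2 cells at P11 and 7 at P18 had exactly 2 Ibsp UMIs, and 1 and 3 cells had exactly 3. At P18 Spp1 was 1719 CPM in the 7 cells just outside and 2039 in the 3 just inside, where CPM is the summed UMIs of a gene scaled to a group total of 1e+06. The requirement for 0 Matn1 removed 19 cells at P11 and 85 at P18, and that for 0 Ptprc removed 4 and 19.

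Ibsp varied over a wide range within the gate. Its UMIs per cell ran from 3 (median 56.5) to 497 at P11 and from 3 (median 70) to 1290 at P18. Alpl ran from 1 (median 6) to 50 UMIs at P11 and from 1 (median 5) to 48 at P18, so many cells passed on only a few molecules of it. The other 2 genes given as markers of these cells, Spp1 and Dkk1, were not part of the gate. Spp1 ran from 1 (median 60.5) to 1446 UMIs at P11, with a molecule in 84 of 84 cells, and from 0 (median 52) to 1416 at P18, in 298 of 313 cells. Dkk1 was found in 54 of 84 cells at P11 (median 1.50, highest 38 UMIs) and in 153 of 313 at P18 (median 0, highest 21). Spp1 was thus found in nearly all gate cells. With every cell thinned to 2000 UMIs, Spp1 remained in 92.8% and 88.4% of gate cells at P11 and P18, against 4.42% and 3.80% of Ptprc cells, which serve as a background for free RNA. Dkk1 remained in 31.3% and 29.9% of thinned gate cells, against 0.698% and 0.207% of Ptprc cells. Its share rose to 48.8% and 43.3% at 5000 UMIs, so cells at 0 Dkk1 UMIs cannot be taken to lack it. Thinning left out 1 and 2 gate cells, and 6 and 115 Ptprc cells, whose median depths were 11724 and 6748 UMIs.

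**Figure D1:**
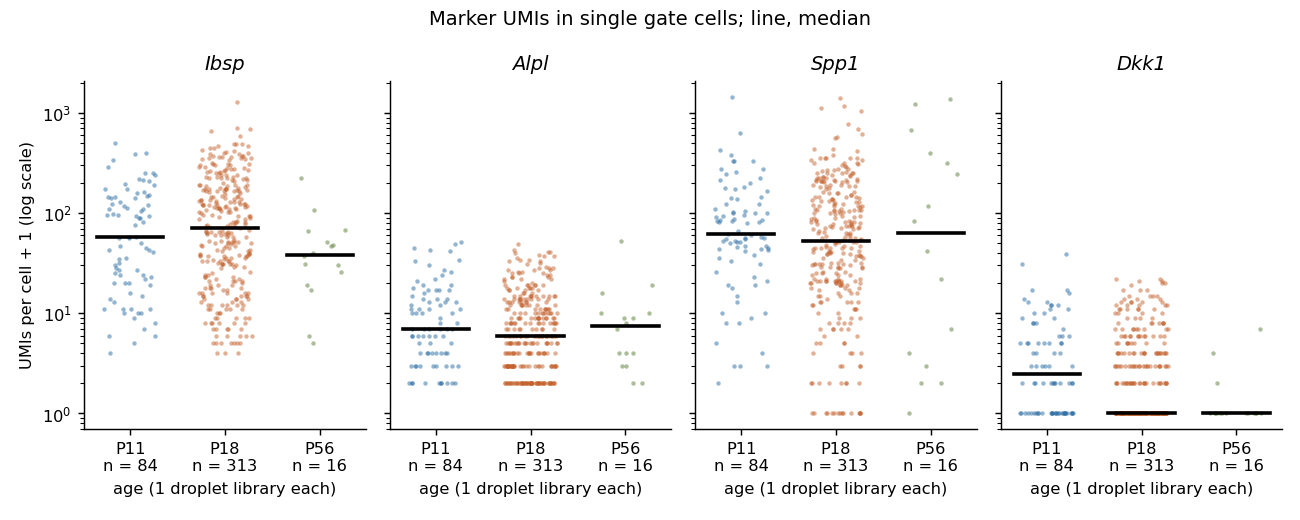
UMIs per gate cell of Ibsp, Alpl, Spp1 and Dkk1 at P11, P18 and P56 on a log axis of UMIs + 1, with each point a cell and each bar the median. Ibsp medians lay at 56.5, 70 and 37.5 UMIs, Spp1 spread over the widest range, and Dkk1 was 0 in many cells.

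The gate's label, mineralising fibrochondrocytes, was checked against lists of marker genes. All 8 chondrocyte markers were detected at both ages, and at least 2 of them were found in 80 of 84 cells at P11 and 311 of 313 at P18, against 1563 of 2347 and 1030 of 2532 other cells without Ptprc and Cdh5. Summed, these markers stood at 93595 and 64016 CPM in the gate and at 12165 and 21188 CPM in the other cells. Col2a1, the collagen of cartilage, stood at 81241 CPM at P11 and 48497 CPM at P18, and Col1a1, the collagen of tendon, bone and fibrocartilage, at 35275 at P11 and 24024 at P18. The 4 markers of hypertrophic growth-plate chondrocytes summed to 280 CPM in the gate at P11 and 10.5 CPM at P18, against 6.77 and 16.3 in the other cells, with a UMI in 16 of 84 and 21 of 313 gate cells. Mmp13, a collagenase, gave 314 of the 360 UMIs at P11 and 0 at P18, while Col10a1, the collagen of hypertrophic cartilage, had 26 and 14 UMIs in 5 and 8 cells, and Panx3 4 and 6 UMIs. The 7 osteoblast markers summed to 43329 and 37763 CPM in the gate, against 47635 and 11869 in the other cells. Of these 7 genes, 6 were at least 2-fold higher in the gate at both ages and 0 lower, against 2.82% and 10.8% of all 12250 genes compared. Alpl and Ibsp are among the 7 and chose the cells. The 5 osteocyte markers summed to 45.9 and 78.1 CPM, against 1.39 and 26.6 in the other cells. Of these UMIs Dmp1 gave 43 of 59 at P11 and 207 of 268 at P18, where 1 cell held 73.9% of them, while Sost had 0 and 1 UMIs and Fgf23 0 at both ages. The 6 tendon markers summed to 3052.5 and 1902 CPM, against 7991 and 2092 in the other cells. Most of this sum was Fmod, fibromodulin, which cartilage also makes, at 2518 CPM at P11 and 1576 CPM at P18, whereas Tnmd, tenomodulin, stood at 409 CPM at P11 and 182 CPM at P18 and Scx, the tendon transcription factor, at 13.2 at P11 and 18.6 at P18. Endothelial markers summed to 4 and 6 UMIs. The 6 osteoclast markers summed to 151 and 123 CPM, against 242 and 129 in the other cells; 3 of them were at 0 at both ages, and Ctsk, cathepsin K, gave 109 of 194 UMIs at P11 and 394 of 421 at P18. By these lists most gate cells at P11 and P18 held cartilage matrix genes beside the mineral genes that chose them, together with transcripts shared with bone and tendon.

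A minority of gate cells carried osteocalcin. Bglap encodes osteocalcin, a protein of mature osteoblasts, and with its neighbour Bglap2 it was used here to sort the cells by at least 3 UMIs of the pair, beside at least 3 UMIs of Col2a1; reads of these near-identical genes may be split uncertainly between them. Col2a1 without Bglap was the state of 67 of 84 cells (79.8%) at P11 and 255 of 313 (81.5%) at P18. Both were found in 10 (11.9%) and 26 (8.31%) cells, Bglap alone in 2 (2.38%) and 8 (2.56%), and neither in 5 (5.95%) and 24 (7.67%). The exact intervals of the 4 shares overlapped between the ages. The gate's Bglap level rested on a few cells: 713 CPM at P11 and 1070.3 CPM at P18, of which the single highest cell gave 82.2% and 78.7%.

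The Col2a1 and the Bglap cells differed in more than the genes that sorted them. In the 2 and 8 cells with Bglap alone, Col1a1 was 80972 and 82652 CPM, against 31975 and 18713 in cells with Col2a1 alone. Ifitm5, a gene of bone-forming osteoblasts, was 759.7 and 322 CPM there, against 0 and 2.46. Chad, chondroadherin, was 31.7 and 6076 CPM, against 5149.7 and 5969. Low Col2a1 was the sorting rule itself, and these few cells were unlike each other. At P18 5 of the 8 held 40 to 337 Chad UMIs with 4 to 19 Bglap and Bglap2 UMIs, while the other 3 held 0 Chad UMIs and 50 to 2891 Bglap UMIs. Cells with both genes also differed from those with Col2a1 alone in Spp1, Dkk1 and Mgp. In them Spp1 was 21036 CPM at P11 and 21629 at P18, against 5060.4 and 8254. At P11 a single cell, with 3 Col2a1 and 0 Chad UMIs, gave 1446 of the 3077 Spp1 UMIs of the 10 cells with both genes. Dkk1 was 663 and 576 CPM, against 231 and 239. Mgp, matrix Gla protein, an inhibitor of calcification, was 212 and 3126 CPM, against 2223 and 6534.

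**Figure D2:**
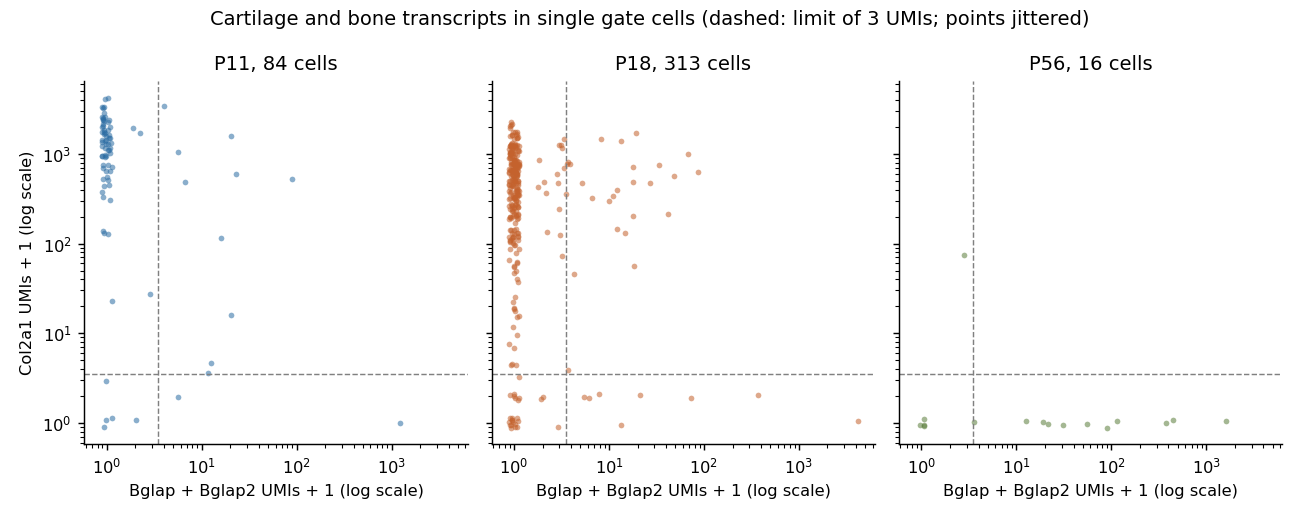
Summed Bglap and Bglap2 UMIs (x) against Col2a1 UMIs (y) in each gate cell, both as UMIs + 1 on log axes. Each age has 1 panel, dashed lines mark the limit of 3 UMIs, and points are jittered. Most P11 and P18 cells lie to the left and high (67 and 255 cells), and 11 of the 16 cells at P56 lie to the right and low.

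The 16 cells that met the gate at P56 were of another makeup. Only 1 of them held Col2a1, with 84 UMIs, 11 held Bglap without Col2a1, and 4 held neither. Dkk1 was found in 3 of 16 cells, and Spp1 in 15. Summed over these cells, Ibsp stood at 5321 CPM (95% interval 4960.4 to 5701), Alpl at 968 (818 to 1138), Spp1 at 29806 (28944 to 30687) and Dkk1 at 65.9 (31.6 to 121). Chad, of cartilage and tendon matrix, and Comp, cartilage oligomeric matrix protein, were still present at 7685 and 10491 CPM. Thbs4, thrombospondin of tendon, had 534 UMIs in the 11 cells with Bglap alone, against 85 and 370 in all gate cells at P11 and P18. The chondrocyte list summed to 11485 CPM at P56, with at least 2 of its genes in 9 of 16 cells and 3 of its 8 genes at 0. Most of this sum was Comp, which is also made by tendon. Sox9 was found in 5 of the 16 cells and Acan in 9. The rest of the account leaves these P56 cells out.

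Within the gate, some genes varied with the amount of Ibsp. Cells were split into those with 3 to 9, 10 to 49 and at least 50 Ibsp UMIs, which made 10, 30 and 44 cells at P11 and 34, 97 and 182 at P18. The split uses counts of the same cells, so values are descriptions, and at P11 the deepest cells were also those with most Ibsp (median 11819, 14461 and 17284 UMIs), while at P18 the order was the opposite (11212, 10553 and 10222). Alpl was 167, 346 and 984 CPM in this order at P11 and 251, 397 and 1106 at P18. Dkk1 was 8.36, 169 and 367 CPM at P11 and 85.3, 91.7 and 372 at P18, highest in the cells with most Ibsp at both ages. Spp1 was 2901, 10028 and 7191 CPM at P11, highest in the middle group, and 1884, 5917 and 14119 at P18, highest in the last. The P11 order leaned on single cells. Of the 4034 Spp1 UMIs of the middle group, 1446 came from a cell with 15 Ibsp UMIs and 635 from a cell with 19. Their Col2a1 UMIs were 3 and 0, and both held Bglap. Wif1, Wnt inhibitory factor, was 1179, 2772 and 4654 CPM at P11 and 1633, 1608 and 4026 at P18. Omd, osteomodulin, a proteoglycan that binds mineral, was 1497, 2093 and 3168 CPM at P11 and 1543, 2279 and 3308 at P18, and Chad and the parathyroid hormone receptor Pth1r were likewise highest at 50 UMIs or more. Other genes ran the other way. Mgp was 3838, 2645 and 1203 CPM at P11 and 8905, 10009 and 2925 at P18. Cnmd, chondromodulin, was 786, 467 and 371 CPM at P11 and 1395, 959 and 421 at P18, and Ucma, a Gla protein of cartilage, 2099, 1385 and 645 and 1854, 1673 and 777. These 3 genes were lowest in cells with at least 50 Ibsp UMIs at both ages. Prg4, lubricin, followed this order at P18 and not at P11: 2651, 616 and 9.05 CPM, against 8.36, 12.4 and 27.5 at P11.

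**Figure D3:**
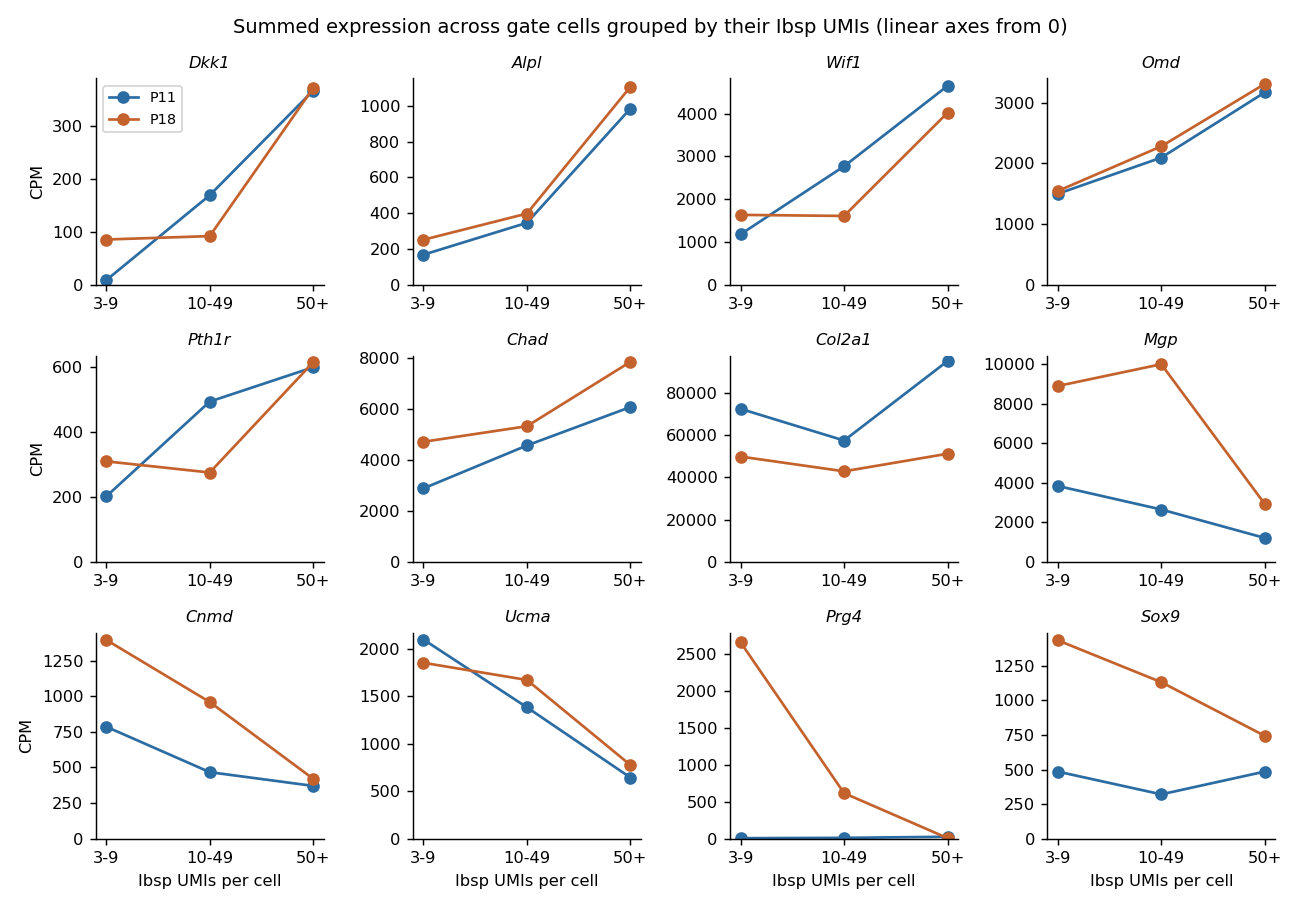
CPM of 12 genes in gate cells grouped by their Ibsp UMIs (3 to 9, 10 to 49, 50 or more), at P11 and P18, on linear axes that start at 0. Dkk1, Alpl, Wif1 and Omd are highest in the group with at least 50 Ibsp UMIs, and Mgp, Cnmd and Ucma are lowest there at both ages.

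The gate was set against 3 other kinds of droplet cell. These were Matn1 cells (at least 3 Matn1 UMIs; 75 cells at P11 and 43 at P18), Msmp Smoc1 cells (at least 1 UMI of each; 63 and 98 cells) and Tnmd cells (at least 3 Tnmd UMIs; 1107 and 268 cells), all with 0 UMIs of Ibsp, Ptprc and Cdh5. A gene counted as higher or lower when its CPM differed at least 2-fold the same way at both ages, among genes with at least 100 UMIs over the groups. Against Matn1 cells 3.99% of 5262 genes were higher in the gate and 2.96% lower, against Msmp Smoc1 cells 3.88% and 3.54% of 5339, and against Tnmd cells 5.84% and 11.5% of 9603. Of the bone sialoprotein and matrix genes, 5 of 7 tested were higher than in Matn1 cells, 6 of 7 than in Msmp Smoc1 cells and 7 of 8 than in Tnmd cells, and none was lower; Ibsp itself is among them and chose the cells. Spp1 was 7679.6 CPM at P11 and 10198 CPM at P18 in the gate, against 639.9 and 123 in Matn1 cells, 437 and 215 in Msmp Smoc1 cells and 43.2 and 91.3 in Tnmd cells. Dkk1 was 272 CPM at P11 and 253 CPM at P18 in the gate, against 1.36 and 0 in Matn1 cells, 0 and 1.01 in Msmp Smoc1 cells and 0.121 and 0 in Tnmd cells. Both were high in the gate at each age beside every one of these classes. Set against Matn1 cells, the log2 ratio of Spp1 was 3.59 (3.49 to 3.68) at P11 and 6.37 (6.05 to 6.71) at P18, with 95% counting intervals in parentheses.

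The gate and the Matn1 cells shared the main matrix of cartilage and differed in part of it. Of 20 cartilage matrix genes tested, 1 was higher in the gate and 5 lower, and 14 were under 2-fold at one age or both. Col2a1 was 81241 CPM at P11 and 48497 CPM at P18 in the gate and 75750 at P11 and 48919 at P18 in Matn1 cells, and Acan, aggrecan, 1554 and 1407 against 1857 and 2298. Comp, which is also made by tendon, was 5394 and 6731 CPM against 3017 and 3218. Lower in the gate were Matn3, matrilin 3, at 258 and 228 CPM against 2198 and 2044, Cnmd at 439.7 and 698 against 1739 and 2301, and Epyc, epiphycan of the growth plate, at 4.67 and 5.83 against 136 and 181. Mgp was also lower, at 1899.8 and 5779 CPM against 7846 and 14599. Higher in the gate was Col8a1, a short-chain collagen, at 1132 and 470.1 CPM against 44.8 and 4.79, and Pappa2, a protease that frees insulin-like growth factors, at 91.8 and 105 against 0.679 and 0. Of phosphate genes, 2 of 8 were higher and 1 lower (Alpl, which chose the cells, and Smpd3 against Mgp): Smpd3, a sphingomyelinase needed for mineralisation, stood at 729 and 518 CPM against 325 and 203. All 4 fibrillar collagen genes called of 10 tested were higher, Col1a1 among them at 35275 and 24024 CPM against 5803 and 35.2.

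Set against Msmp Smoc1 cells, 207 genes were higher in the gate and 189 lower. Prg4, the lubricant of joint and tendon surfaces, was 21.0 CPM at P11 and 501 CPM at P18 in the gate and 22654 and 30086 in Msmp Smoc1 cells, and Cytl1, a secreted cytokine-like protein of cartilage, 1.56 and 200.4 against 977 and 4776. Higher in the gate were Lox, the collagen cross-linking enzyme lysyl oxidase, at 533 and 164 CPM against 5.11 and 3.04, and Omd at 2676 and 2789 against 93.3 and 161. Tnni2, the inhibitory troponin of fast muscle, was 519.9 and 346 CPM against 2.56 and 0. Of the cartilage matrix list 6 of 20 genes were higher in the gate and 2 lower. Against Tnmd cells, the cells of tendon, all 8 chondrocyte markers were higher in the gate and all 6 tendon markers lower. Tnmd itself is 1 of these 6 and chose the Tnmd cells, so its direction was set by the rule. Col2a1 stood at 515 and 157 CPM in Tnmd cells, and Kera, keratocan of tendon, at 34.2 and 2.33 CPM in the gate against 2225 and 1419.8. Scx was 13.2 and 18.6 CPM against 371 and 315. Foxa3, a forkhead transcription factor, was 104 and 181 CPM in the gate against 0.241 and 0.342, and Chil1, a secreted chitinase-like protein of cartilage, 88.7 and 349.8 against 0.181 and 1.03. By these lists the gate held more cartilage and less tendon transcript than Tnmd cells.

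**Figure D4:**
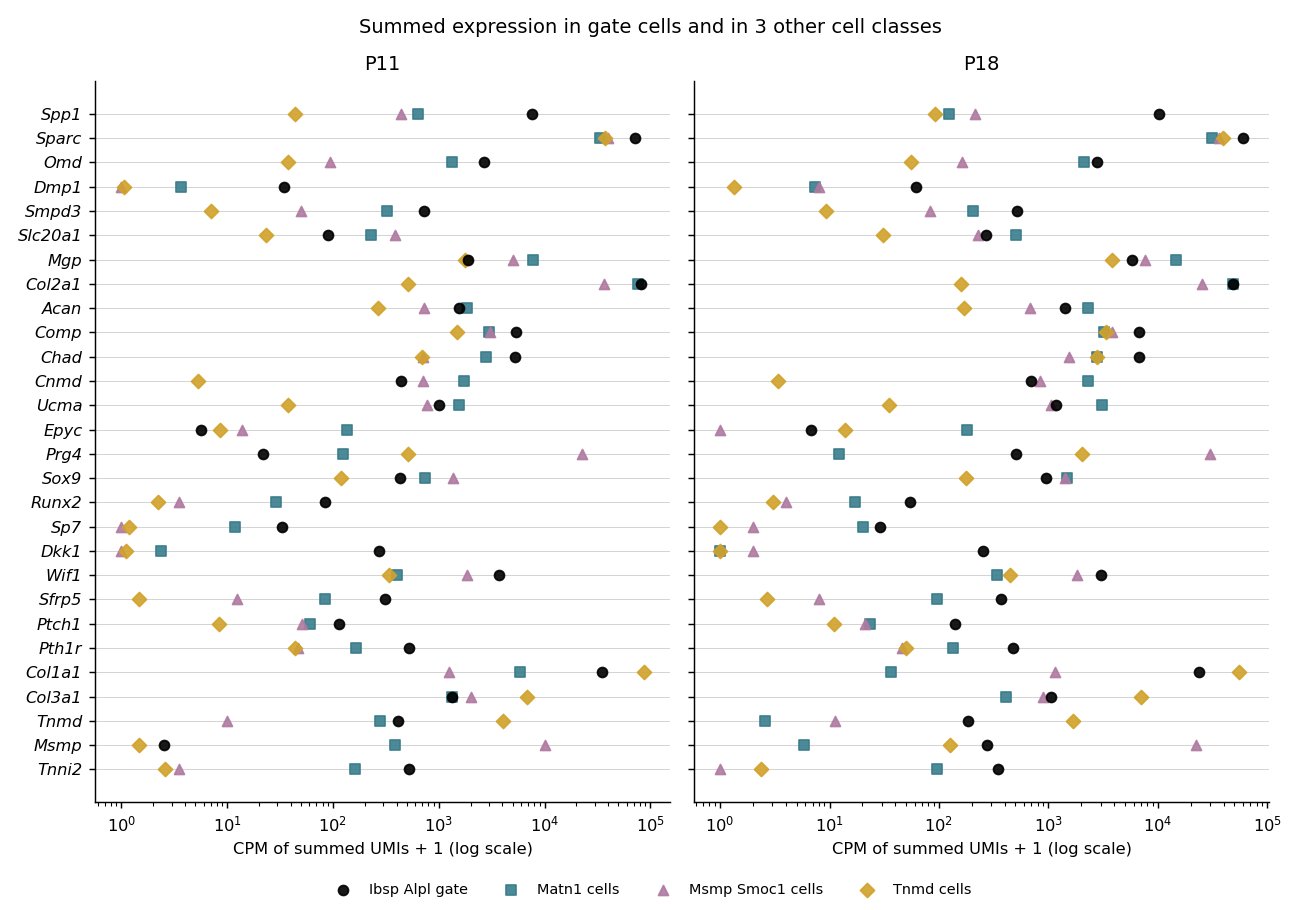
CPM of selected genes (rows) at P11 and P18 on a log axis of CPM + 1, in the gate and in Matn1, Msmp Smoc1 and Tnmd cells, with 1 summed library per point. Dkk1 lies at 272 and 253 CPM in the gate and at 1.36 and 0 in Matn1 cells, while Col2a1 lies close together in the gate and the Matn1 cells.

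Inhibitors of Wnt signalling were among the genes higher in the gate. Of 26 Wnt genes listed, 12 had enough counts against Matn1 cells, of which 5 were higher in the gate and 1 lower, 11 against Msmp Smoc1 cells (5 and 1), and 20 against Tnmd cells (7 and 5). Wif1, which binds Wnt ligands, had 3741 CPM at P11 and 3011 CPM at P18 in the gate, against 400.4 and 339 in Matn1 cells, and was found in 84 of 84 and 309 of 313 gate cells. Its log2 ratio to Matn1 cells was 3.22 (3.10 to 3.35) at P11 and 3.15 (2.96 to 3.35) at P18. The 1 lower gene against both cartilage classes was Sfrp1, a secreted Frizzled-related inhibitor, at 7.00 and 12.5 CPM in the gate, 36.0 and 75.1 in Matn1 cells and 40.9 and 109 in Msmp Smoc1 cells. Its relative Sfrp5 had 311 and 365 CPM, against 83.5 and 95.9 in Matn1 cells and 11.5 and 7.09 in Msmp Smoc1 cells. Notum, an enzyme that removes the lipid of Wnt ligands, had 78.6 and 78.1 CPM, and Fzd9, a Wnt receptor, 162 and 219. Frzb, another decoy receptor, had 441 and 496 CPM. None of the 9 Wnt genes with enough counts differed 2-fold between the gate at P11 and at P18.

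Receptors and targets of Hedgehog signalling were detected, and its ligand Ihh was found in few cells. Ptch1, the receptor and a target of the pathway, stood at 114 CPM at P11 and 138 CPM at P18 in the gate, Smo, the signal transducer, at 42.8 and 51.3, and Gli1 at 19.5 and 20.7. Hhip, a decoy receptor induced by the pathway, stood at 26.5 and 42.8 CPM, against 105 and 131 in Msmp Smoc1 cells, where it was higher. Ihh, Indian hedgehog, had 16 and 16 UMIs in 8 and 11 cells. Among cells thinned to 2000 UMIs, Ptch1 was found in 16.9% and 22.8% of gate cells and in 1.63% and 0.909% of Ptprc cells, and Gli1 in 2.41% and 4.50% against 0.233% and 0.0413%. Ihh was found in 2.41% and 0.965% of thinned gate cells, at P11 the same share as Gli1. Unthinned, Ptch1 had a UMI in 56 and 171 gate cells and Gli1 in 15 and 64. Regulators of skeletal cells were present in the gate: Pth1r at 528 and 474 CPM, Mef2c, a factor of chondrocyte maturation, at 301 and 272, Runx2, the bone master regulator, at 82.5 and 53.3, and its downstream factor Sp7 at 31.9 and 27.7. In Matn1 cells Pth1r stood at 164 and 133 CPM and Runx2 at 27.8 and 16.0.

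From P11 to P18 most genes of the gate differed less than 2-fold. Of 4200 genes with at least 100 UMIs over both ages, 4.21% were at least 2-fold higher at P18 and 1.12% at least 2-fold higher at P11, and the median log2 difference of all was 0.18. None of the 7 tested bone sialoprotein and matrix genes, 9 Wnt genes, 5 genes of the Hedgehog loop and 10 fibrillar collagens passed 2-fold. Alpl was 708 CPM (663 to 756) at P11 and 791 (761 to 821) at P18, a log2 difference of 0.16, 95% interval 0.05 to 0.27. Dkk1 was 272 CPM (244 to 302) and 253 (237 to 271), with -0.10, 95% interval -0.28 to 0.08, so it was not told apart between the ages at this depth. Spp1 was 7679.6 and 10198 CPM, with 0.41, 95% interval 0.38 to 0.44, and Ibsp 6202 and 11396, with 0.88, 95% interval 0.84 to 0.91, both higher at P18 by less than 2-fold. Ibsp, 1 of the 7 bone sialoprotein and matrix genes, and Alpl chose the cells by fixed UMI limits. Median gate depth was 15367 UMIs at P11 and 10466 at P18, so the levels of these 2 genes are descriptions only.

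Some phosphate, regulatory and cartilage matrix genes passed 2-fold. Of 8 phosphate genes, 2 were higher at P18 and none lower. Mgp was 1899.8 CPM at P11 and 5779 CPM at P18 (log2 difference 1.60, 95% interval 1.54 to 1.67), and Slc20a1, a sodium-dependent phosphate importer, 89.5 and 266 (1.57, 95% interval 1.29 to 1.86). Of 9 skeletal regulators, 2 were higher: Sox9, the master regulator of cartilage, at 434 and 941 CPM (1.12, 95% interval 0.99 to 1.25), and Runx1 at 38.1 and 76.9 (1.01). Tnfrsf11b, osteoprotegerin, the decoy receptor that limits osteoclast formation, was 131 and 318 CPM (1.28, 95% interval 1.05 to 1.53). Prg4, the 1 of 19 cartilage matrix genes past 2-fold, was 21.0 and 501 CPM, and its P18 counts came from 40 of 313 cells. Among the 10 with the largest difference were Msmp and Cytl1, found in 29 and 33 cells at P18, where 1 cell held 54.8% of Msmp counts, and F3, tissue factor, at 20.2 and 146 CPM (2.85, 95% interval 2.28 to 3.48). The rest of the 10 were A4galt, Gprc5a, Arc and Fam25c, besides S100a8 and S100a9, genes of neutrophils. S100a8 and S100a9 had 2 and 1 UMIs at P11 and 267 and 347 at P18. The whole leukocyte list summed to 11.7 and 210.3 CPM in the gate and to 254 and 11679.6 in the other cells without Ptprc and Cdh5, and its part in other results was not tested. A gate that admits any Matn1 count brings Mgp to 0.99, Slc20a1 to 0.90, Sox9 to 0.92, Tnfrsf11b to 0.94 and F3 to 0.79, all under 2-fold. Runx1 stood under 2-fold in 6 alternatives, down to 0.29 where each cell had equal weight, and Sox9 in 3 (0.92 to 0.98).

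Fewer genes were higher at P11. Tnc, tenascin C, a matrix protein of growing and loaded tissue, stood at 149 and 8.45 CPM (-4.14, 95% interval -4.75 to -3.57), and Lox at 533 and 164 (-1.70, 95% interval -1.86 to -1.54). Mmp13, the collagenase of hypertrophic cartilage and bone, had 314 UMIs in 5 cells at P11 and 0 at P18, which with the limit of 3 counts is a log2 difference of at most -8.13. None of these Mmp13 counts was in a cell with Col2a1 alone: 52 were in cells with Col2a1 and Bglap, 54 in cells with Bglap alone and 208 in cells with neither. The rest of the 10 were Pcsk5, Ifitm3, Car3, Fndc1, Rrad, Neat1 and Marcks, with log2 differences from -2.25 to -1.64. Of the Car3 counts at P11, 83.8% came from 1 cell. Of 15 glycolysis genes 1 (Pfkl, -1.16) was lower at P18, and of 10 immediate early genes 1 (Jun, -1.55).

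The Gli1-lineage plates were not used by the gate and allowed a test. On each plate, wells with at least 3 Ibsp counts and 0 of Ptprc, Cdh5 and Matn1 were summed, as were the other wells without Ptprc and Cdh5, giving 146 Ibsp wells against 490 others over 7 plates. Of the 146 wells only 34 also held Alpl, which at this depth was therefore not required. The pairs of sums were compared with edgeR's quasi-likelihood test with plate as a block and Benjamini-Hochberg adjustment over 4228 genes, and all adjusted p below come from it. The test called 2.96% of genes higher and 4.12% lower in Ibsp wells at adjusted p under 0.05, with a median log2 difference of -0.07 over all genes. Ibsp wells held more counts than the others on all 7 plates (plate medians 3144 to 5685 against 1949 to 4859.5), and the part of depth in the calls was not tested. Of the 146 wells, 119 held Col2a1 without Bglap, 16 both, 3 Bglap alone and 8 neither.

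Several genes of mineralisation were higher in Ibsp wells. Spp1 ran from 245 (median 2326) to 8331 CPM in Ibsp wells and from 61.0 (median 113) to 848 CPM in the other wells (log2 difference 3.78, SE 0.26, adjusted p = 1.79e-13), higher on 7 of 7 plates. Alpl ran from 12.9 (median 109) to 254 CPM in Ibsp wells and from 2.41 (median 7.62) to 41.6 CPM in the other wells (log2 difference 3.04, SE 0.41, adjusted p = 1.83e-06), also higher on 7 of 7. At P7 and at P11 the Ibsp wells held only 1 Alpl count, against 1 and 2 in the other wells, so the direction there rests on single counts. Smpd3 ran from 51.5 (median 256) to 499 CPM in Ibsp wells and from 11.4 (median 36.0) to 44.2 CPM in the other wells, so that the 2 sets of plates did not overlap (log2 difference 3.12, SE 0.29, adjusted p = 7.57e-10). All 6 bone sialoprotein and matrix genes tested were higher and none lower, Ibsp having been left out; besides Spp1 they were Dmp1, an acidic protein of osteocytes (5.61, adjusted p = 1.83e-11, higher on 5 of 7), Bglap, Bglap2, Omd (2.45, adjusted p = 5.09e-08) and Sparc, osteonectin (1.08, adjusted p = 3.49e-08). Bglap ran from 0 (median 140.2) to 11667 CPM in Ibsp wells and from 0 (median 4.63) to 276 CPM in the other wells (log2 difference 5.03, SE 0.32, adjusted p = 1.15e-13). Its level rested on few wells, 1 well giving 49.3% of its counts at P21 and 85.8% at P28, and the call was gone where wells with at least 3 Bglap counts were left out (0.57, adjusted p = 0.779). Without those wells Spp1 stood at 3.16, Alpl at 2.62, Smpd3 at 2.83 and Wif1 at 2.37, all still past the threshold. The call for Col1a1 was gone there (0.14, adjusted p = 0.664). Dmp1 rested on few wells too, with 220 counts in 22 Ibsp wells. For this gene 1 well gave 77.5% of the counts at P18 and 76.7% at P28. The 10 largest rises included Cd200, a surface immunoglobulin (2.97, adjusted p = 1.55e-09), and Fxyd3, a regulator of the sodium pump (2.39, adjusted p = 0.000274). The rest of the 10 were Dmp1, Bglap, Bglap2, Spp1, Smpd3, Omd, Sfrp5 and Tnfrsf11b. Dkk1 was too rare for the test, with 30 counts in 11 Ibsp wells and 2 counts in 2 other wells. Of the 7 phosphate genes 3 were higher (Alpl, Smpd3 and Nt5e, an ectonucleotidase that makes adenosine, 1.32, adjusted p = 0.00842), and Mgp passed in neither direction (-0.55, adjusted p = 0.0936). The Nt5e call was gone without the P11 plate (adjusted p = 0.0703) and without P18 (0.0582).

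Most cartilage matrix genes and some Wnt and Hedgehog genes were higher as well. Of 19 cartilage matrix genes 15 were higher in Ibsp wells and 1, Prg4, lower (-1.35, adjusted p = 0.0186). Col2a1 ran from 10607 (median 13981) to 41046 CPM in Ibsp wells and from 1628 (median 4020.2) to 12932 CPM in the other wells (log2 difference 2.19, SE 0.19, adjusted p = 6.80e-11), higher on 7 of 7. Chad ran from 4369 (median 6316) to 10489.5 CPM in Ibsp wells and from 1095 (median 2152) to 4327 CPM in the other wells, with no overlap between the sets of plates (log2 difference 1.87, SE 0.18, adjusted p = 1.72e-09). Acan (1.59, adjusted p = 2.77e-05), Hapln1, the link protein of aggrecan (1.75, adjusted p = 5.90e-06), Comp (1.37, adjusted p = 2.30e-06) and Sox9 (0.96, adjusted p = 0.00333) were all among the 8 of 8 chondrocyte markers that were higher. The higher genes therefore included cartilage as well as bone matrix. Of 8 Wnt genes 4 were higher and 1 lower: Wif1, Sfrp5 (2.81, adjusted p = 9.09e-06), Frzb (1.55, adjusted p = 0.00622) and Fzd9 (1.45, adjusted p = 0.0135), and Dkk3, of the Dickkopf family (-1.24, adjusted p = 0.0112). Wif1 ran from 1402 (median 1999.5) to 4377 CPM in Ibsp wells and from 318 (median 498) to 736 CPM in the other wells, again with no overlap (log2 difference 2.31, SE 0.19, adjusted p = 1.83e-11). Of 3 genes of the Hedgehog and parathyroid hormone-related protein loop 2 were higher, Ptch1 (1.90, adjusted p = 0.0151, higher on 6 of 7) and Pth1r (1.86, adjusted p = 4.93e-05). Mef2c (1.68, adjusted p = 0.000777) was higher too, and so was Tnfrsf11b (2.50, adjusted p = 4.71e-06, higher on 6 of 7). The Ptch1 call was gone at 10 or more Ibsp counts (adjusted p = 0.0649) and without Bglap wells (adjusted p = 0.0879). Leaving out 1 plate ended the call for Prg4 (without P7, P14 or P18, adjusted p = 0.0544 to 0.183), Frzb (without P18, 0.0626), Fzd9 (without P28 or P42, 0.105 and 0.0993) and Dkk3 (without P28, 0.0749).

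Genes of connective tissue fibroblasts were lower in Ibsp wells. All 5 tested of this list fell: Clec3b (-2.01, adjusted p = 0.000869), Cd34 (-1.93, adjusted p = 3.81e-05), Ly6a (-1.76, adjusted p = 5.90e-06), Dpt, dermatopontin (-1.67, adjusted p = 0.000238), and Pdgfra, a growth factor receptor (-1.08, adjusted p = 0.0183). Of 6 tendon markers 3 were lower and 1 higher, with Tnmd at -0.63 (adjusted p = 0.0231), Kera at -1.67 (adjusted p = 0.000658) and Thbs4 at -1.34 (adjusted p = 3.77e-05) the lower ones and Fmod, fibromodulin, the higher (0.62, adjusted p = 0.0129). Of the 10 genes with the largest fall, Ptx3, a soluble pattern receptor, led with 1 count over all Ibsp wells and 104 in the other wells (adjusted p = 0.000108), lower on 6 of 7 plates and higher on 0. Gpc3, a heparan sulfate proteoglycan, ran from 0 (median 20.0) to 51.5 CPM in Ibsp wells and from 103 (median 146) to 374 CPM in the other wells, with no overlap (log2 difference -2.58, SE 0.37, adjusted p = 4.71e-06). The other 8 were Ifi204, Adamtsl4, Lima1, Prss23, Fabp3, Emilin2, Cd55 and Gas7, with 1 to 11 counts in Ibsp wells and 68 to 206 in the others. The Gas7 call was gone without P7, P14, P18 or P42 (adjusted p = 0.0530 to 0.173), and that of Fmod without P14 or P21 (0.0687 and 0.0962).

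**Figure D5:**
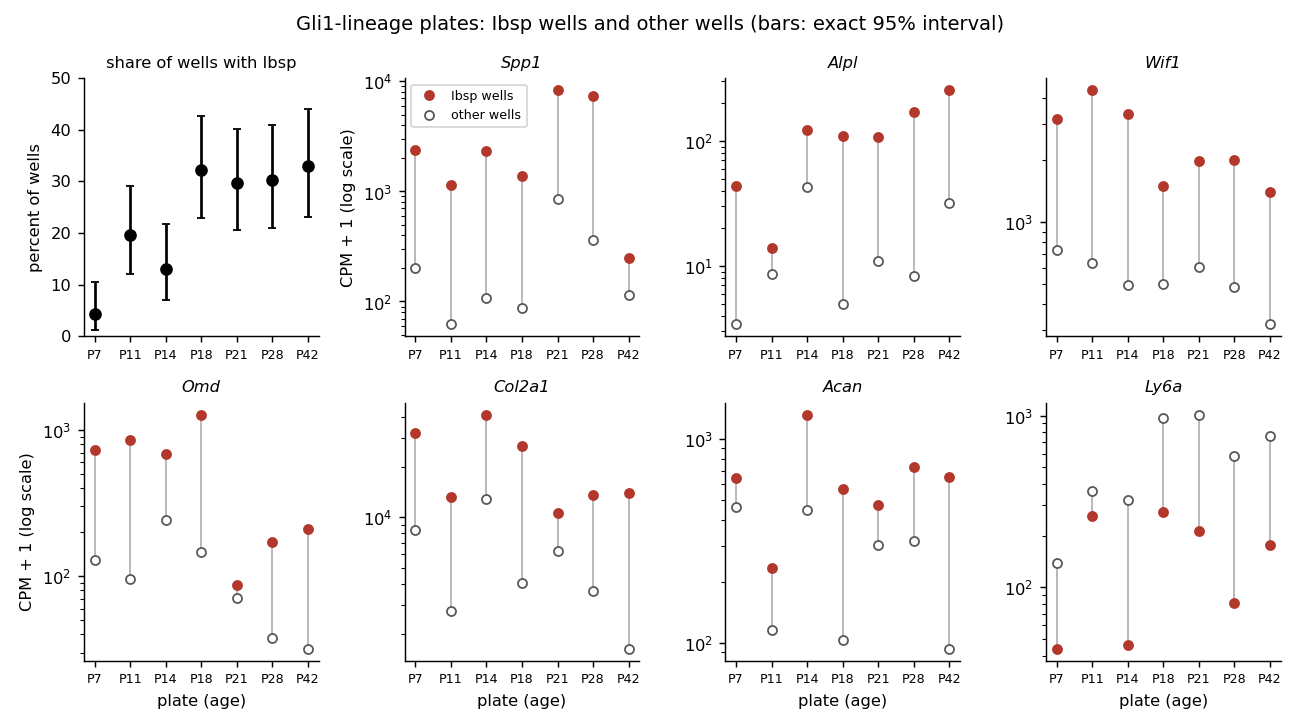
Share of wells with Ibsp on each of the 7 Gli1-lineage plates (bars are exact 95% binomial intervals), and CPM + 1 of selected genes on log axes in Ibsp wells (filled) and other wells (open) of each plate, joined by lines. The share runs from 4.26% at P7 to 32.9% at P42, and Spp1 and Wif1 are higher in Ibsp wells on all 7 plates.

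The share of Ibsp wells, those with at least 3 Ibsp counts and 0 of Matn1, was compared with age over the plates. It was 4.26% at P7, 19.6% at P11, 13.0% at P14, 32.3% at P18, 29.7% at P21, 30.3% at P28 and 32.9% at P42, of 85 to 94 wells without Ptprc and Cdh5. Wells below the limit often held some Ibsp, which was found in 178 of the 490 other wells. With a limit of 1 count the share was 9.57% at P7 and 72.9% at P42. The exact 95% intervals of the last 4 plates overlapped widely, while that of P7, 1.17 to 10.5, lay below all of them. Such intervals cover counting error within 1 plate and not the spread between pools of mice, so they do not compare ages. Against log2 age Pearson's r was 0.87 (exact two-sided permutation p = 0.00873, adjusted 0.0175) and Spearman's rho 0.86 (exact p = 0.0238, adjusted 0.0238), over 7 plates and 2 relations. Without P7 and P42, the 2 ages farthest from the median, r was 0.73 (exact p = 0.183, n = 5), and without P7 alone 0.75 (exact p = 0.0944, n = 6). The linear relation was thus lost without P7, and the rank relation without any 1 of P7, P11, P14 and P42 (exact p = 0.0583 to 0.103). All plates had tamoxifen at P5 and P7, so age and time since the doses cannot be told apart. The counts are whole on every plate; the files of 3 plates write them without a decimal point and those of 4 with one, too few of either to give r within a layout.

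The droplet gate and the plate wells were set side by side over 3930 genes measured in both. Of 121 genes higher in Ibsp wells, 70 (57.9%) were also at least 2-fold higher in the gate than in other droplet cells at both ages, and these made up 61.4% of the 114 genes higher there, while over all genes 2.82% were higher in that droplet comparison and 10.8% lower. Of genes lower on the plates 116 were also lower in droplets. The gene that ran opposite was Msmp, microseminoprotein, named here after its values were seen. In the gate it stood at 1.56 and 272 CPM, against 264 and 1359 in other cells, a log2 ratio of -7.41 and -2.32 at P11 and P18. On the plates it was higher in Ibsp wells (log2 difference 1.34, SE 0.37, adjusted p = 0.0169), on 5 of 7 plates, but the call was gone without the P18 plate, without the P28 plate and in DESeq2 (adjusted p = 0.192). Where Ibsp wells also had to hold Alpl, the difference reversed to -2.85 (adjusted p = 1.98e-05).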

How the data were processed

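Droplet files held whole-number counts of UMIs per gene and cell barcode, and plate files whole-number counts per gene and well, deposited by the authors with no normalisation found in the values. The build was mm10, per the submitters' processing notes, and the droplet matrices name software versions 3.0.2 and 3.1.0, per the file headers. Aligner, annotation and the use of UMIs on the plates are not given in the sources used here. The members of the gate, the gene lists and the comparisons were chosen with earlier results of these data known.

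Cells under 500 genes or over 10% mitochondrial counts were dropped. Gate counts were summed per library and divided by their total to give CPM, with exact Poisson intervals, and ratios have exact conditional binomial intervals, all at 95% and for counting error only. A count of 0 was taken as up to 3 counts in a ratio, and genes at or under 3 counts in both groups count as equal. The genes named are those of the lists, plus the 10 with the largest difference each way, leaving out genes of the gate, sex, mitochondria and ribosome and unnamed genes. Scrublet in scanpy 1.11.5 called 1 cell at P11, 1 at P18 and 3 at P56, too few to be taken as working, so doublets were kept. Removing its 70, 233 and 211 highest scores, at an assumed 0.8% per 1000 cells, took out 1, 5 and 0 gate cells and is an alternative.

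On the plates, counts were tested with edgeR 4.0.16 in R 4.3.3, using TMM scaling, a minimum of 10 counts in 3 or more sums, and the plate as a block, because both sums of a plate come from 1 pool. DESeq2 1.42.0 was an alternative. On simulated counts for 4228 genes the plate test recovered 53 of 100 genes changed by 1 on the log2 scale and 93 of 100 changed by 2, and 6 of its 152 calls were false. For the gate at P11 and P18, 99 of 100 genes set at 1.5 were recovered and 1 of 3999 unchanged genes passed 2-fold. These gate counts were drawn with Poisson error only, with no spread between cells or between pools of mice. They therefore do not measure how many of the real calls between the ages are false. Correlations with age enumerated 5040 orders, using scipy 1.17.1. Promoter sequences came from RefSeq tables of GRCm38.p6, which matched 4 of 4 genes sought. Alternatives covered the gate, filters, scaling, thinning depth, doublets, the block and each plate left out. Of the listed genes, Snorc and Ankh were not matched in the droplet gene names.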

Additional observations from a re-analysis of the deposited data

Results flagged for a closer look

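The search covered 25 series over the 7 plates: the share of Ibsp wells, and the CPM (depth-scaled counts) of genes in Ibsp wells. Each series was searched for a plate set apart from the other 6. The measure was that plate's gap to the nearest plate divided by the whole range, against a 95% critical value of 0.568. Chance flags about 1 in 20 groups, and 8 of the 25 series, all of them genes, had such a plate. The P42 plate was the highest for 4 of them: Comp at 6009 CPM, Prg4 at 5676 CPM, Msmp at 2821 CPM and Tnni2 at 1515 CPM. Comp, Prg4 and Msmp are matrix and secreted genes, and Tnni2 is a troponin. The P21 plate was the highest for Bglap at 11667 CPM, a value to which 1 well gave 49.3% of the counts, and for Ptx3 at 9.64 CPM, from 1 count, while the Ibsp wells of the other 6 plates held 0. The P14 plate was the highest for Ptch1, the Hedgehog receptor, at 181 CPM, and the P7 plate, which had 4 Ibsp wells, was the lowest for Tnfrsf11b, osteoprotegerin, at 42.7 CPM. The part of depth, of single wells and of age in these values was not tested.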

How the results depend on the processing

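The tests on 7 plates and the descriptions of 397 cells are limited by depth and by 1 library per age. Gate calls from P11 to P18 (177 genes higher at P18, 47 higher at P11) became 268 and 75 under a stricter cell filter (1000 genes, 5% mitochondrial counts) that left 25 P11 cells, 989 and 988 with no UMI minimum, and 61 and 24 with at least 300 UMIs. With no minimum, calls higher and lower in the gate were 515 and 448 against Matn1 cells and 404 and 559 against Msmp Smoc1 cells, and the higher ones were 961 against Tnmd cells and 1089 against other cells. With at least 300 UMIs they were 89 and 66 against Matn1 cells, 113 and 77 against Msmp Smoc1 cells, and 353 and 701 against Tnmd cells. Genes lower than in Matn1 cells numbered 97 where any Matn1 count was admitted, and genes lower than in Msmp Smoc1 cells 117 under median-ratio scaling. The P18 share of kept cells was 5.17% with at least 10 Ibsp UMIs, 4.76% with at least 2 Alpl UMIs, 6.70% under the stricter cell filter and 7.26% with any Matn1. The share of cells with Dkk1 was 48.8% at P11 and 43.3% at P18 when thinned to 5000 UMIs, and 64.3% and 48.9% without thinning. In a gate without Bglap cells the log2 ratio of Bglap2 to other cells reversed to -2.17, since the setting removes its counts.

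On the plates, edgeR's calls (125 higher, 174 lower) were 62 higher without a count filter, 45 and 16 with a limit of 1 Ibsp count, and 38 higher where Alpl was also required. The plate served as the pairing block, and with no block 12 genes were higher and 6 lower; calls for Bglap, Omd, Sfrp5, Col2a1, Acan, Comp, Sox9 and Ptch1 were gone. DESeq2 called 102 higher and 155 lower, of which 100 and 152 were shared, and leaving out each plate gave 93 to 122 higher and 131 to 212 lower. Alternatives chosen after seeing the data gave 370 lower with at least 10 Ibsp counts, 55 and 60 on the 4 plates whose counts are written with a decimal point and 69 and 83 on the 3 written without. Reversed were Emilin2 (0.020) and Fabp3 (0.83) at a limit of 1 count, and Fmod (-0.38) and Msmp (-2.85) where Alpl was required; the cause was not tested. The relation of the Ibsp share with age gave r = 0.57 and rho = 0.75 with at least 10 Ibsp counts and r = 0.73 and rho = 0.60 without P7 and P42, the latter 2 settings added after seeing the data. Leaving out each plate gave r from 0.75 to 0.92 and rho from 0.77 to 0.94. No paired analysis was possible between droplet ages because each age is 1 library.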

Other observations

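Transcription factors of bone and of chondrocyte maturation were found beside Sox9 in the gate. Of 12 skeletal regulators with enough counts against Tnmd cells, 7 were higher in the gate and 2 lower, against 5.84% and 11.5% of all genes. Sox9 was 434 and 941 CPM at P11 and P18, against 119 and 174 in Tnmd cells, and Mef2c 301 and 272 against 30.8 and 33.2. Runx2 was 82.5 and 53.3 CPM, against 1.21 and 2.05, and Sox5, a partner of Sox9, 52.1 and 58.0 against 9.90 and 14.7. The 2 lower genes were the tendon factors Scx and Mkx, the latter at 11.7 and 14.9 CPM against 66.4 and 49.6. Against Matn1 cells Runx2 and Dlx5 were higher and Runx1, at 38.1 and 76.9 against 131 and 187 CPM, was lower.

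Of the bone morphogenetic protein and transforming growth factor genes, 1 of 11 differed 2-fold in the gate between P11 and P18: Gdf10, at 19.5 and 59.4 CPM, with log2 difference 1.61, 95% interval 1.01 to 2.27. Its level in Msmp Smoc1 cells was 364 and 513 CPM. Bmp4, a ligand, was 41.3 and 31.2 CPM in the gate and 1.36 and 0 in Matn1 cells, and Bambi, a decoy receptor, 167 and 191 against 67.9 and 60.7. On the plates 2 of 11 of these genes were higher in Ibsp wells and 2 lower in edgeR's test: Tgfb1 (1.70, adjusted p = 0.00348, higher on 7 of 7 plates), Id1 (0.82, adjusted p = 0.0440), Tgfb2 (-1.26, adjusted p = 0.0138) and Id3 (-0.72, adjusted p = 0.0108). Of 14 glycolysis and hypoxia genes 4 were higher in Ibsp wells and none lower, namely the glucose transporter Slc2a1 (1.80, adjusted p = 0.00879), the angiogenic factor Vegfa (1.55, adjusted p = 0.00841), and the enzymes Pgk1 (1.02, adjusted p = 0.0438) and Pkm (0.66, adjusted p = 0.0399). Csf1, a growth factor of macrophages and osteoclasts, was lower in Ibsp wells (-1.34, adjusted p = 0.0197) and higher there on 0 of 7 plates.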
